A study of Mus musculus with 6 samples.

Results

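The enzyme families of xenobiotic metabolism were described in RNA-seq of MSR1 KO and MSR1 WT macrophages. Members were taken by gene symbol from the deposited table and were the numbered genes of the cytochrome P450 (Cyp), glutathione S-transferase (Gst), microsomal glutathione S-transferase (Mgst), UDP-glucuronosyltransferase (Ugt1 and Ugt2) and sulfotransferase (Sult) families. This gave 158 genes of the 52550 in the table, of which 93 were Cyp, 22 Gst, 3 Mgst, 19 Ugt and 21 Sult genes.

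The study compared macrophages with and without macrophage scavenger receptor 1 (MSR1), a receptor that takes up modified lipoproteins, after culture beside bone marrow stem cells (BMSCs). Bone marrow of C57BL/6 mice was grown for 7 days with 25 ng/ml M-CSF, the growth factor that turns marrow progenitors into macrophages. The macrophages were then kept with BMSCs in transwell inserts for 48 h, and RNA was sequenced from 3 MSR1 KO and 3 MSR1 WT libraries (KO and WT libraries from here on). The KO is of the whole animal, both genotypes received the same co-culture, and no library of macrophages grown alone was analysed here. The libraries of a genotype are described as biological replicates, and the sources used here do not say whether each came from a different mouse, so the p-values measure the spread between these libraries only.

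Foreign compounds and many hormones, lipids and vitamins are cleared in steps. Cytochrome P450 enzymes first oxidise the compound (phase I), transferases then attach glutathione, glucuronic acid or sulfate to it (phase II), and membrane pumps carry the product out. The families are best known from liver, whereas macrophages use several members on their own sterols, fatty acids, retinoids and leukotrienes. Several of the genes are known targets of AHR, a receptor for aromatic compounds, and of NFE2L2, the main regulator of the response to oxidants.

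Total counts per library ran from 36143518 to 47417448, so that a count of 0 allowed a level of up to 0.0632 to 0.0835 counts per 1000000 counts (CPM), taking 3 counts as the upper limit and covering counting error only. Msr1 itself had 2118, 1825 and 2000 counts in the KO libraries against 7543, 9163 and 9219 in the WT libraries, a log2 fold change of -2.02 (SE 0.14, adjusted p = 0.00124, edgeR's quasi-likelihood test). The targeted gene was thus lower in every KO library but not at 0. All 10 macrophage markers listed for the check were detected, with a summed level of 25200 to 26500 CPM in KO and 25700 to 28600 CPM in WT libraries. Among them Fcgr1 was higher and Mrc1 lower in KO libraries at an adjusted p under 0.05 by edgeR. Stromal cell markers were present as well. All 17 were detected in a culture that the transwell membrane should keep apart, no defining marker was at 0, and their summed level was 2360, 3050 and 2460 CPM in the KO against 4220, 3340 and 3750 CPM in the WT libraries. In edgeR's test 6 of the 17 (Cxcl12, Pdgfra, Pdgfrb, Bgn, Acta2 and Tagln) were lower in KO libraries at an adjusted p under 0.05. None was higher, and of all tested genes 2.66% were lower and 2.25% higher at that threshold. At an unadjusted p under 0.05, 9 markers were lower and 1 higher, against 10.2% and 8.65% of all tested genes. DESeq2 called 8 lower and 1 higher, against 5.2% and 4.54% of its genes. Markers of mast cells summed to 23.7 to 25.5 CPM in KO and 9.17 to 18.8 CPM in WT libraries, and those of B cells to 168 to 236 and 104 to 149 CPM. In KO libraries Kit was higher at the adjusted threshold by edgeR, and Ighm, the B cell marker that was tested, passed the fold and unadjusted p (log2 fold change 0.64, adjusted p = 0.0667, edgeR). DESeq2 called 1 mast cell and 1 B cell marker higher. Neutrophil markers summed to 636 to 1040 CPM in KO and 419 to 799 CPM in WT libraries, and all 8 had a positive log2 fold change, with a median of 0.382. Of neutrophil and dendritic cell markers none was called by edgeR or DESeq2, with 1 of each higher at an unadjusted p under 0.05. The part of these cell types in the results was not tested. In bulk RNA, fewer cells of a type and less RNA per cell cannot be told apart.

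Most members had no counts and few differed between genotypes. Of the 158 genes, 94 were listed at 0 in all 6 libraries, 64 had at least 1 count, and 50 passed the filter on low counts and were tested among 16402 genes. The other 14 with a count had totals of 2 to 36 counts over the 6 libraries. Between genotypes, 5 of the 50 tested members (10%) were lower in KO libraries at an adjusted p under 0.05 in edgeR's quasi-likelihood test, against 2.66% of all tested genes. These were Cyp1b1, Gstm1, Sult1a1, Ugt1a6a and Ugt1a6b. None was higher at that threshold by edgeR, against 2.25% of all tested genes. At an unadjusted p under 0.05, 12 members (24%) were lower and 6 (12%) higher by edgeR, against 10.2% and 8.65% of all tested genes. DESeq2, which gave 46 members an adjusted p, called 8 lower and 1 (Cyp27a1) higher, against 5.2% and 4.54% of its genes. At a fold change above 1.5 with a p under 0.05, the thresholds of the study, applied here to the unadjusted p, 11 members (22%) were lower and 4 (8%) higher, against 5.05% and 3.59% of all tested genes. Every KO library lay below every WT library for 12 members (24%, against 13.4% of all tested genes) and above for 4 (8%, against 12.1%). Over the 50 members the median log2 fold change was -0.097 and 32 were negative, whereas the median of all tested genes was -0.002 with 50.4% negative.

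The number of members lower at the adjusted threshold changed when a library was left out. It was 1 without KO replicate 1 or without WT replicate 2, 2 without KO replicate 2, KO replicate 3 or WT replicate 1, and 5 without WT replicate 3. Cyp1b1 was called in each of these fits, Gstm1, Sult1a1 and Ugt1a6b in the one without WT replicate 3, and Ugt1a6a in those without WT replicate 1 or WT replicate 3. The adjusted p in the other fits with a library left out reached 0.114 for Gstm1, 0.134 for Sult1a1, 0.0845 for Ugt1a6a and 0.1 for Ugt1a6b by edgeR. The log2 fold changes kept their sign, from -0.754 to -0.514 for Gstm1 and from -1.235 to -0.788 for Sult1a1 in these fits, while the calls over all genes numbered 71 to 779 in place of 805. The 4 members higher by fold and unadjusted p became 2 without KO replicate 2, WT replicate 2 or WT replicate 3, and 1 without KO replicate 3 or WT replicate 1. Outside the Ugt1a locus, whose genes share exons, 3 of 41 tested members (7.32%) were lower and 0 higher by the adjusted p, and 8 (19.5%) were lower and 2 (4.88%) higher by fold and unadjusted p, with a median log2 fold change of -0.065.

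**Figure D1:**
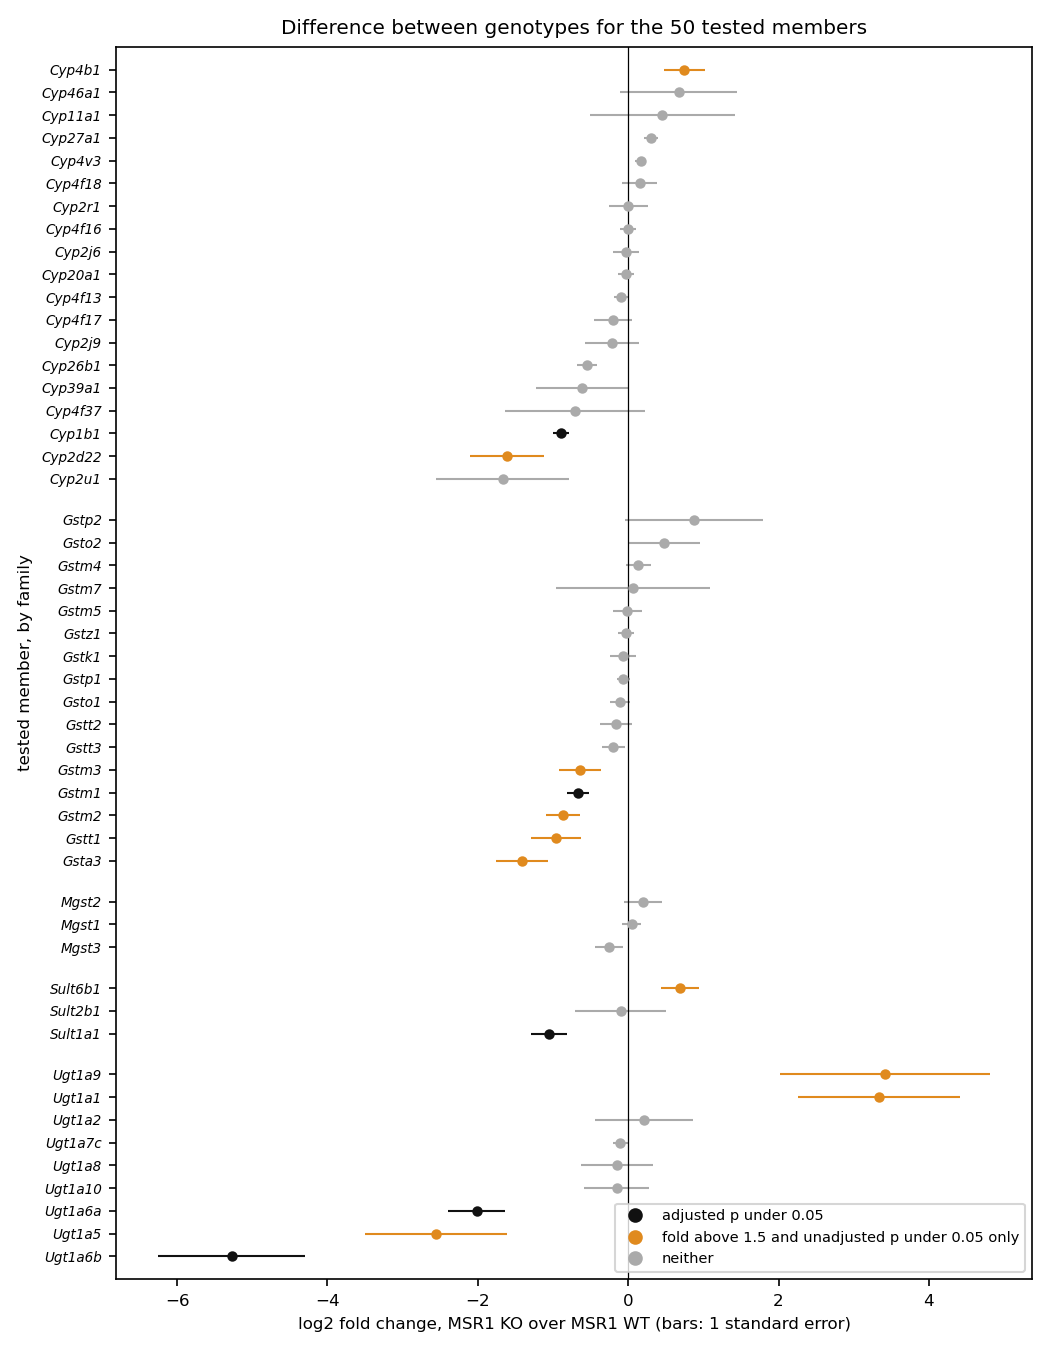
Log2 fold change between genotypes for the 50 tested members, grouped by family, with bars of 1 standard error from edgeR. The 5 black points on the negative side are the members with an adjusted p under 0.05, and the widest bars belong to Ugt1a genes and to members of low counts.

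The level of a gene per length, in CPM per kilobase of exon, ordered the members. In WT libraries the highest mean level was that of Gstm1, at 85.5 against 53.7 in KO libraries. It was followed by Mgst1 (54.9 in WT and 56.6 in KO), Cyp27a1 (49.2 and 60.6), Ugt1a7c (35.7 and 33.2), Cyp4v3 (32.3 and 36.3), Gsto1 (32 and 29.6) and Cyp1b1 (24.5 and 13.2). Gstm1 thus stood first in WT and behind Cyp27a1 and Mgst1 in KO libraries. The place of Ugt1a7c rests on how reads of exons shared with other Ugt1a genes were assigned, which is not known. Most genes of the classical drug-metabolising subfamilies of liver had no count. All 5 Cyp2b, all 15 Cyp2c, all 7 Cyp3a and all 4 Cyp2a genes had no count in any library, as had 7 of 8 Cyp2d genes, all 10 Ugt2 genes and all 8 Sult2a genes. The same held for all 5 Cyp4a genes, of a family that acts mostly on fatty acids. Cyp1a1 had 5 counts in KO replicate 3, Cyp1a2 had 2 in KO replicate 1, and both were at 0 in the other libraries.

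**Figure D2:**
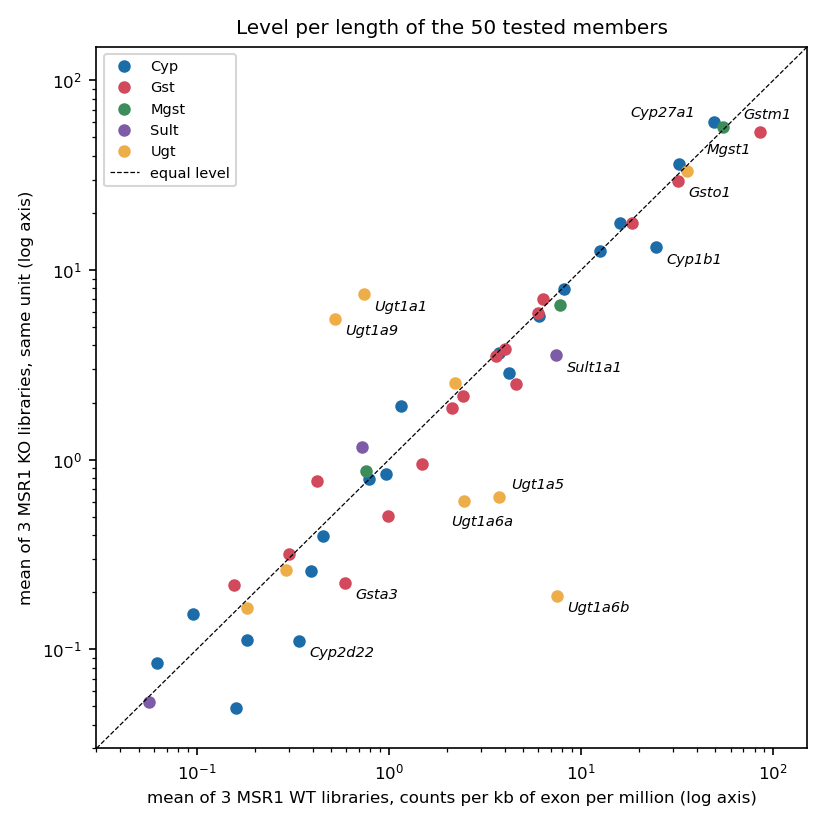
Mean level of the 50 tested members in KO against WT libraries, in CPM per kilobase of exon on log axes, coloured by family. Most members lie along the line of equal level, Cyp1b1, Sult1a1 and Gstm1 lie under it, and the points farthest from it are Ugt1a genes.

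Among the P450 enzymes of the Cyp1 to Cyp3 families, which act mostly on foreign compounds, 11 of 58 genes had a count and 6 were tested. Cyp1b1, which oxidises polycyclic aromatic hydrocarbons and estradiol and is a classical AHR target, was the one called. It had 2515, 3532 and 3357 counts in the KO libraries against 6275, 6369 and 5900 in the WT libraries. Every KO library was thus well below every WT library, although KO replicate 2 was higher than the other KO libraries. The mean level fell from 143 ± 8.98 CPM (SD, n = 3) to 77.0 ± 10.2 CPM (SD, n = 3). The log2 fold change was -0.89 (SE 0.11, adjusted p = 0.00884, edgeR) and stayed between -1.01 and -0.82 under all 13 alternative settings. Cyp1b1 was called under each of them, with the highest adjusted p, 0.0493, under the replicate block (edgeR). Cyp1b1 (chromosome 17 from 79706953 to 79715041 in the deposited table) shared no exon base with another annotated gene and no stretch of 50 bases with another gene's transcripts.

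In both genotypes the order of the 3 libraries by Cyp1b1 was their order by summed stromal markers. Cyp1b1 was at 70.0, 88.7 and 72.2 CPM in the KO libraries, where the stromal sum was 2360, 3050 and 2460 CPM, and at 152, 134 and 143 CPM in the WT libraries, where the sum was 4220, 3340 and 3750 CPM. Of 18 members compared in this way, those passing either rule and Cyp26b1, Cyp27a1 and Cyp4v3, 3 had that order in both genotypes. The others were Gstt1 and Cyp4v3, the latter with higher values in KO libraries, while Gstm1 and Sult1a1 did not have it. The part of the stromal markers in the difference of Cyp1b1 was not tested.

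Of the other tested Cyp1 to Cyp3 genes, Cyp2d22, the sole Cyp2d gene with counts, had 23, 12 and 17 counts in KO and 84, 53 and 34 in WT libraries. The groups did not overlap, but the WT libraries differed among themselves, and the log2 fold change of -1.61 (SE 0.49) passed the fold and unadjusted p but not the adjusted p (0.117, edgeR). Cyp2u1, a fatty acid hydroxylase, had 9, 0 and 24 counts against 44, 37 and 27 and passed neither rule (log2 fold change -1.67, SE 0.88). Its log2 fold change was -2.74 without KO replicate 3 and -1.10 without KO replicate 2, the library at 0. Cyp2r1, which starts the activation of vitamin D, was level, with 67, 69 and 65 counts in KO and 66, 73 and 76 in WT libraries. Cyp2j6 and Cyp2j9, of the arachidonic acid epoxygenase subfamily, had log2 fold changes of -0.03 and -0.21 and overlapping groups.

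The Cyp genes with endogenous substrates included the most abundant ones. Of the 17 Cyp4 genes, which act mostly on fatty acids, 7 were tested, with a median log2 fold change of 0.002. Cyp4v3, a fatty acid hydroxylase, had 4685, 5836 and 6396 counts in KO and 5279, 5682 and 5009 in WT libraries. After scaling to library size, every KO library lay above every WT library, but the means of 138 ± 8.10 and 123 ± 4.41 CPM (SD over 3 libraries) gave a log2 fold change of 0.17 with an adjusted p of 0.265 (edgeR). Cyp4b1 had 143, 186 and 202 counts against 72, 114 and 149, with no overlap after scaling, and its log2 fold change of 0.75 (SE 0.27) passed the fold and unadjusted p only (adjusted p = 0.185, edgeR). Cyp4f18, which breaks down leukotriene B4, ranged more widely in WT (786, 1367 and 1673 counts) than in KO libraries (1089, 1280 and 1659 counts) and passed neither rule. Cyp4f16 was at 38.8 CPM in both genotypes.

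Cyp27a1, the mitochondrial enzyme that hydroxylates the side chain of cholesterol, had 4918, 5178 and 5958 counts in KO and 3885, 5260 and 4784 in WT libraries. In CPM this was 137, 130 and 128 against 94.2, 111 and 116, so that all KO libraries were higher. Its log2 fold change was 0.30 (SE 0.09, adjusted p = 0.11, edgeR), and DESeq2 gave an adjusted p of 0.0476. Of other genes of cholesterol and oxysterol turnover, Cyp39a1 and Cyp46a1 were low, with 16 to 98 and 4 to 36 counts per library, and their groups overlapped. Cyp7b1 had 0 to 12 counts per library and was not tested, and Cyp7a1 and Cyp8b1 were at 0. Cyp26b1, which degrades retinoic acid, had 520, 737 and 612 counts in KO and 952, 1035 and 931 in WT libraries. The groups did not overlap, and its log2 fold change of -0.55 (SE 0.14) just missed the threshold by edgeR (adjusted p = 0.0637) and passed it by DESeq2 (adjusted p = 0.0115). Without KO replicate 2, edgeR called it as well (log2 fold change -0.70, adjusted p = 0.0311).

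Among the glutathione S-transferases the members lower by fold and unadjusted p were in the mu, alpha and theta classes. Of 16 tested Gst genes, 12 had a negative log2 fold change, 1 (6.25%) was lower at the adjusted threshold and 5 (31.2%) by fold and unadjusted p, against 2.66% and 5.05% of all tested genes, and none was higher by either rule in edgeR or at an adjusted p under 0.05 in DESeq2. The 22 Gst genes together summed to 240, 208 and 256 CPM in KO and 293, 322 and 271 CPM in WT libraries. The summed level was lower in every KO library, with a ratio of means of 0.795.

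Gstm1, the most abundant Gst gene here, carried much of that sum. It had 2953, 2664 and 4098 counts in KO and 4711, 7224 and 4608 counts in WT libraries. Scaled to library size, the KO libraries (82.2, 66.9 and 88.2 CPM) all lay below the WT libraries (114, 152 and 112 CPM), of which replicate 2 was the highest. Its mean was 126 ± 22.8 CPM (SD, n = 3) in WT and 79.1 ± 11.0 CPM (SD, n = 3) in KO libraries, for a log2 difference of -0.67 (SE 0.15, adjusted p = 0.0408, edgeR). It kept its adjusted p under 0.05 in 6 of 13 alternative settings, with log2 fold changes from -0.75 to -0.51 over all of them. Gstm1 (chromosome 3 from 108012255 to 108017973) had 18.9% of its 50-base stretches in transcripts of other genes, most of them in Gstm2-ps1.

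The neighbouring mu-class genes varied. Gstm2 had 110, 159 and 259 counts in KO and 317, 354 and 329 in WT libraries, with KO replicate 3 nearest to the WT values. Its log2 fold change of -0.87 (SE 0.22) passed the fold and unadjusted p and missed the adjusted one by edgeR (0.0682), whereas DESeq2 gave 0.0102 and edgeR without KO replicate 3 gave 0.0368. Gstm3 had 53, 43 and 55 counts against 89, 98 and 66, a log2 fold change of -0.64 that passed the fold and unadjusted p only (adjusted p = 0.255, edgeR), and 28.8% of its 50-base stretches also occurred in other genes, mainly Gstm1. Gstm4 and Gstm5 had log2 fold changes of 0.13 and -0.01 with overlapping groups, so the mu class did not move as 1 unit in these values.

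Gsta3, an alpha-class enzyme, was lower by a larger ratio at a much lower level. Its counts were 48, 38 and 29 in KO and 122, 136 and 78 in WT libraries, with no overlap. The log2 fold change was -1.41 (SE 0.35), with an adjusted p of 0.0609 by edgeR and 0.0108 by DESeq2. Gstt1, of the theta class, had 20, 40 and 35 counts against 67, 67 and 61 and a log2 fold change of -0.96 (SE 0.33, adjusted p = 0.159, edgeR). The abundant Gst genes of other classes stayed close to equal. Gsto1, which reduces dehydroascorbate, had a log2 fold change of -0.11 (SE 0.14), Gstp1 one of -0.06 (SE 0.09), Gstz1, the maleylacetoacetate isomerase of tyrosine breakdown, one of -0.02 (SE 0.11), and Gstk1 one of -0.06 (SE 0.17), all with overlapping groups. Gstp1 and its low-count copy Gstp2 share 33.7% and 54.3% of their 50-base stretches with other genes, mainly with each other, so their reads may have been divided.

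The 3 membrane-bound Mgst genes, a family separate from the cytosolic enzymes, showed no call. Mgst1, which conjugates glutathione and reduces lipid peroxides in membranes, had 4110, 4937 and 4818 counts in KO and 4660, 6087 and 3728 counts in WT libraries. The WT libraries spanned the KO values, and the log2 fold change was 0.04 (SE 0.13). Mgst2 and Mgst3 had log2 fold changes of 0.19 (SE 0.25) and -0.25 (SE 0.19). None of the 3 had an unadjusted p under 0.05 by edgeR, and DESeq2 called 0.

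Of the 21 sulfotransferases, 15 were at 0 in all libraries and 3 were tested. Sult1a1, which sulfates phenols, had 197, 175 and 289 counts in KO and 426, 709 and 339 in WT libraries. The groups did not overlap, and WT replicate 2 was the highest library, as it was for Gstm1. Its mean was 11.2 ± 3.44 CPM (SD, n = 3) in WT and 5.37 ± 0.917 CPM (SD, n = 3) in KO libraries, for a log2 difference of -1.06 (SE 0.24, adjusted p = 0.0475, edgeR). The adjusted p stayed under 0.05 in 6 of 13 alternative settings, with log2 fold changes between -1.24 and -0.79. Sult1a1 (chromosome 7 from 126672865 to 126676432) overlaps Sgf29 on the other strand over 4.05% of its exon bases. Sult6b1 had 86, 98 and 120 counts against 50, 90 and 62, higher in every KO library after scaling, and passed the fold and unadjusted p only (log2 fold change 0.69, SE 0.25, adjusted p = 0.184, edgeR). Sult2b1, which sulfates cholesterol, had 5 to 12 counts per library.

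**Figure D3:**
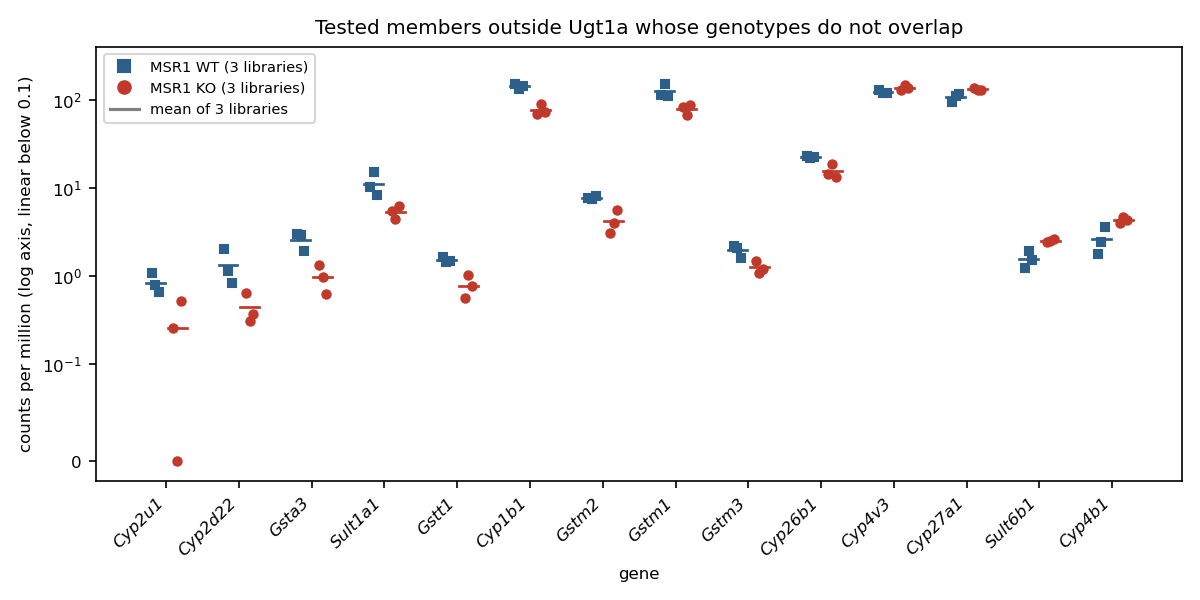
Level in each library of the 14 tested members outside the Ugt1a locus whose genotypes did not overlap, in CPM on a log axis that is linear below 0.1, with WT libraries as squares, KO libraries as circles and a line at each mean of 3 libraries. The genes were chosen for not overlapping, and KO libraries are lower for 10 and higher for 4 (Cyp4b1, Sult6b1, Cyp27a1 and Cyp4v3).

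The 9 Ugt1a genes were the only glucuronosyltransferases with counts, and they need a reading of their own because they are 1 locus on chromosome 1. Each gene has its own first coding exon, which sets the compound that the enzyme binds, and all 9 continue into the same later exons. In the GENCODE annotation of GRCm38 the 9 genes had 1311 exon bases in common, in 4 blocks, which made up 30.4% to 59.9% of the exon bases of each gene. A read that lies wholly in these common bases does not tell which gene it came from. The first 150 coding bases, which lie in the first coding exon, are shown for Ugt1a6a and Ugt1a6b, the called members, with the 2 positions that differ in capitals. They are also shown for Ugt1a7c, which held most counts of the locus, and for Ugt1a1, which led the other Ugt1a genes in KO replicates 1 and 2. All are from GRCm38 on the plus strand.
Ugt1a6a, chr1:88138474-88138623: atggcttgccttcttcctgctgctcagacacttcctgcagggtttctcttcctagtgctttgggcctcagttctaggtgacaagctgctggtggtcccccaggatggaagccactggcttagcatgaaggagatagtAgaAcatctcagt
Ugt1a6b, chr1:88106942-88107091: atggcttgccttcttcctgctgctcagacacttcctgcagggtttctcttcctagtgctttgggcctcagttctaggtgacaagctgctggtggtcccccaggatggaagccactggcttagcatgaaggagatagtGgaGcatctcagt
Ugt1a7c, chr1:88095121-88095270: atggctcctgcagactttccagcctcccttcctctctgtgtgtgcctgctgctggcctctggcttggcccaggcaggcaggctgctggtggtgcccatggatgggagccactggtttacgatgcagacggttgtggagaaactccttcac
Ugt1a1, chr1:88212002-88212151: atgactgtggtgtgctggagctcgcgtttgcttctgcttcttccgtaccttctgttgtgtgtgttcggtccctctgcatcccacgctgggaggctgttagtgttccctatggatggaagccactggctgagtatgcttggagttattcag
Over all coding bases of the first coding exon, Ugt1a6b was identical to Ugt1a6a at 832 of 858 positions (97%), and 79.8% of the 50-base stretches of Ugt1a6b occurred in other genes. The counting program is not given in the sources used here, so how it assigned reads of the common exons is not known. Gm20528 overlaps the locus on the other strand, and whether strand was used in counting is not given either.

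Taken gene by gene, the locus held the largest differences of all members. Ugt1a6b had 16, 19 and 21 counts in the KO libraries against 976, 1342 and 64 in the WT libraries, a log2 fold change of -5.27 (SE 0.98, adjusted p = 0.0267, edgeR). The groups did not overlap, but WT replicate 3 was far nearer to the KO libraries than to the other WT libraries. Ugt1a6a, whose product glucuronidates small phenols, had 106, 89 and 123 counts against 202, 714 and 483 and a log2 fold change of -2.02 (SE 0.38, adjusted p = 0.0267, edgeR). Here too the groups did not overlap, with WT replicate 1 nearest to the KO values. Leaving out libraries in turn gave log2 fold changes of -5.82 to -4.77 for Ugt1a6b and -2.36 to -1.67 for Ugt1a6a, and the adjusted p stayed under 0.05 in 6 and 7 of 12 alternative settings.

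The other Ugt1a genes with large differences rested on 1 or 2 libraries. Ugt1a1, the bilirubin-conjugating member, had 856, 1011 and 30 counts in KO and 127, 51 and 32 in WT libraries, so that KO replicate 3 was below all WT libraries. Its log2 fold change of 3.34 (SE 1.08) passed the fold and unadjusted p (adjusted p = 0.134, edgeR), and without KO replicate 3 it was 3.91 with an adjusted p of 0.0212. Ugt1a9 had 25, 26 and 1625 counts in KO and 35, 45 and 67 in WT libraries. Its log2 fold change of 3.42 (SE 1.40, adjusted p = 0.234, edgeR) was -0.75 without KO replicate 3. Ugt1a5 had 57, 57 and 55 counts against 35, 166 and 840 in WT libraries, with a log2 fold change of -2.55 (SE 0.95, adjusted p = 0.187, edgeR) that was -0.64 without WT replicate 3.

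The remaining Ugt1a genes passed neither rule. Ugt1a2 had 206, 216 and 262 counts in KO and 366, 34 and 207 in WT libraries. Ugt1a10 had 24, 24 and 24 against 39, 23 and 23, and Ugt1a8 had 17, 13 and 14 against 19, 21 and 13. Ugt1a7c, which was given by far the most counts, had 5127, 5056 and 6987 counts in KO and 6150, 7910 and 5633 in WT libraries, a log2 fold change of -0.11 (SE 0.10, adjusted p = 0.627, edgeR). How many of these counts are reads of the common exons is not known.

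Summed over the locus, the genotypes did not separate. The 9 genes together gave 179, 164 and 197 CPM in KO and 193, 217 and 178 CPM in WT libraries, with overlapping groups. Tested as 1 feature, the locus had a log2 fold change of -0.13 (SE 0.10, adjusted p = 0.563, edgeR). Ugt1a7c took 76.4% to 79.7% of the locus counts in every library. The other 8 genes together summed to 36.4, 36.5 and 46.3 CPM in KO and 43.6, 50.5 and 41.9 CPM in WT libraries. What changed from library to library was which of the 8 held the counts. Ugt1a1 held 65.5% and 69.5% of them in KO replicates 1 and 2, and Ugt1a9 held 75.4% in KO replicate 3. In WT replicates 1 and 2 Ugt1a6b held 54.3% and 56%, and in WT replicate 3 Ugt1a5 held 48.6%. The leading gene thus also differed among libraries of the same genotype.

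**Figure D4:**
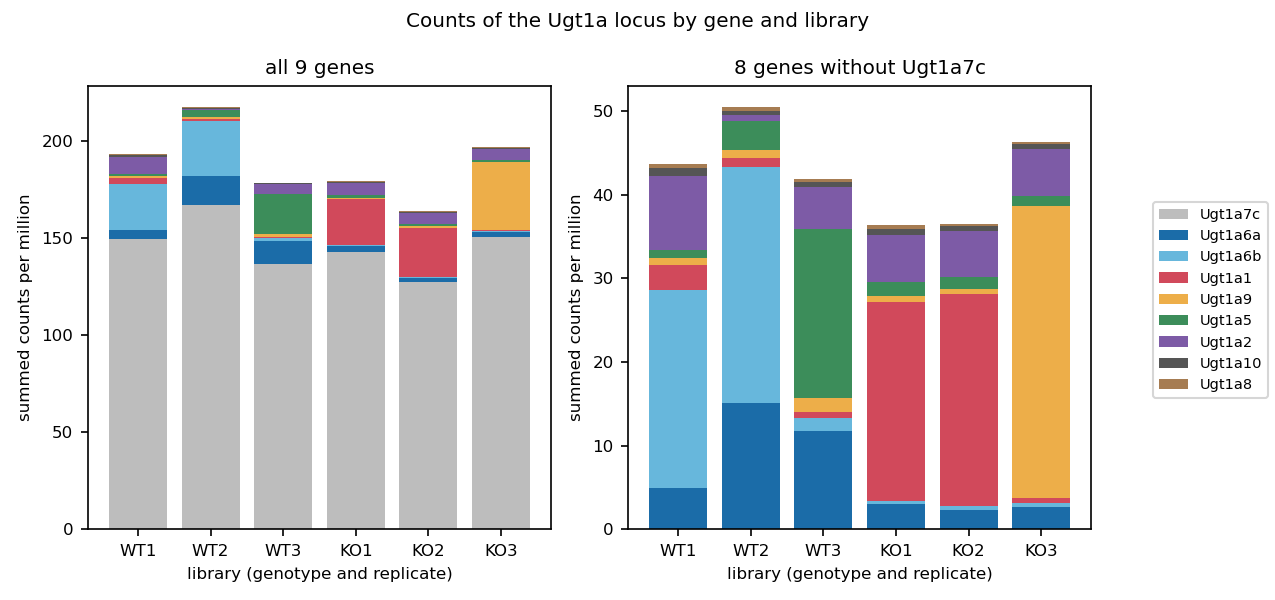
CPM of the Ugt1a genes stacked by library, for all 9 genes (left) and without Ugt1a7c (right). The heights differ little, from 164 to 217 CPM on the left and from 36.4 to 50.5 CPM on the right, while the gene with the largest share of the right-hand bars changes from Ugt1a6b or Ugt1a5 in WT to Ugt1a1 or Ugt1a9 in KO libraries.

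The promoters of the members were read for the letters that the main xenobiotic regulators bind. RefSeq promoter windows on GRCm38.p6, of which the 250 bases before each start were searched on both strands, were found for 130 of the 158 members. The xenobiotic response element of AHR with ARNT, TNGCGTG, was in 4.1% of all 32851 windows, in 2.63% of the 152 windows of members and in 1 of 53 windows of tested members (Ugt1a5). The antioxidant response element of NFE2L2, TGACNNNGC, was in 10.2% of all windows and 4.61% of the windows of members. Among tested members it was in 5 of 53 windows, those of Cyp4f18, Gsta3, Gstm5, Gstm7 and Mgst1. Neither was in any of the 5 windows of the 4 called members that had one, which says only that these letters are not in these windows. A match is a description of the letters only, and the windows of Cyp1b1, the member called in every setting, and of Gsta3, with the matching letters in capitals, are shown as examples without and with one.
Cyp1b1 promoter, chr17:79715062-79715311, minus strand: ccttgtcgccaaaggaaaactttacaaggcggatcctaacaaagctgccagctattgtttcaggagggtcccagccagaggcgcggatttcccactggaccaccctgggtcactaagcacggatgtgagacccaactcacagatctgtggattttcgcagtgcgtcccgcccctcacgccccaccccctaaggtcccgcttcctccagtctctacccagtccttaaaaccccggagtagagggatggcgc
Gsta3 promoter, chr1:21240335-21240584, plus strand: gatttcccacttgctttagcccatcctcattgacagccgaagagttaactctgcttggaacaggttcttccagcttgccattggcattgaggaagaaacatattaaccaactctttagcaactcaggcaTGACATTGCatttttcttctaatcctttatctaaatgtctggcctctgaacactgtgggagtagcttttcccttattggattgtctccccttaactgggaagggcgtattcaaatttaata

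Genes around the families were taken from lists written from general knowledge. Of the receptors and regulators of xenobiotic genes, 17 of 23 were tested and none was called at the adjusted threshold by edgeR. At an unadjusted p under 0.05, 4 were higher and 0 lower, against 8.65% and 10.2% of all tested genes. DESeq2 called 1 higher and 0 lower, against 4.54% and 5.2% of its genes. The median log2 fold change of the 17 regulators was 0.138. Ahr had 463, 433 and 700 counts in KO and 561, 648 and 769 in WT libraries, a log2 fold change of -0.24 (SE 0.17, adjusted p = 0.527, edgeR) with overlapping groups. Nfe2l2, far more abundant, had a log2 fold change of -0.05 (SE 0.07). Of 5 tested AHR targets outside the families none was called by edgeR or DESeq2. At an unadjusted p under 0.05, 1 was higher and 1 lower, beside the same shares of all tested genes. Serpinb2, a plasminogen activator inhibitor, had 71, 85 and 78 counts in KO and 27, 60 and 40 in WT libraries, higher in every KO library, and passed only the fold and unadjusted p (log2 fold change 1.00, adjusted p = 0.134, edgeR). Nqo1, the quinone reductase that AHR and NFE2L2 both induce, had 81, 71 and 124 counts against 167, 183 and 115, which was lower in every KO library after scaling to library size but passed only the fold and unadjusted p (log2 fold change -0.67, adjusted p = 0.184, edgeR).

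Among 21 tested genes of electron transfer and cofactor supply, 1 was lower and 0 higher at the adjusted threshold by edgeR, against 2.66% and 2.25% of all tested genes. At an unadjusted p under 0.05, 5 were lower and 0 higher, against 10.2% and 8.65%. DESeq2 called 2 lower and 0 higher, against 5.2% and 4.54% of its genes. The median log2 fold change of the 21 genes was -0.108. The called gene was Alas1, the first enzyme of heme synthesis, which had 2546, 2792 and 3404 counts in KO and 4261, 4461 and 4563 in WT libraries (log2 fold change -0.52, SE 0.08, adjusted p = 0.0183, edgeR). Por, which passes electrons to the microsomal P450 enzymes, had a log2 fold change of 0.07 (SE 0.12). Of 20 other phase I enzymes tested, 2 were lower and 0 higher at the adjusted threshold by edgeR, beside the same shares of all tested genes. At an unadjusted p under 0.05, 7 were lower and 2 higher, and DESeq2 called 3 lower and 0 higher, again beside the same shares. The median log2 fold change was -0.189. Ephx1, the microsomal epoxide hydrolase, had 671, 808 and 991 counts against 1489, 1703 and 1153 (log2 fold change -0.73, adjusted p = 0.0221, edgeR). Aldh1a2, which makes retinoic acid, had 194, 181 and 170 counts against 377, 406 and 399 (log2 fold change -1.01, adjusted p = 0.024, edgeR). For both genes every KO library lay below every WT library. The call of Alas1 was lost without KO replicate 1 or WT replicate 1, that of Ephx1 without any 1 library other than WT replicate 3, and that of Aldh1a2 without any 1 other than KO replicate 1 or WT replicate 3. Over the 6 fits with a library left out the adjusted p by edgeR was at most 0.0822, 0.0959 and 0.0989, and the log2 fold changes ranged from -0.583 to -0.467, -0.841 to -0.667 and -1.146 to -0.871. None of the 10 other phase II enzymes tested was called by edgeR or DESeq2. At an unadjusted p under 0.05, 2 were lower and 0 higher, against 10.2% and 8.65% of all tested genes.

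Of 14 tested transporters, 1 was higher and 3 were lower at the adjusted threshold by edgeR, against 2.25% and 2.66% of all tested genes. At an unadjusted p under 0.05, 2 were higher and 4 lower, against 8.65% and 10.2%. DESeq2 called 1 higher and 4 lower, against 4.54% and 5.2% of its genes. The median log2 fold change of the 14 transporters was -0.089. Abcb1a, a P-glycoprotein that exports drugs, had 363, 477 and 594 counts in KO and 218, 366 and 230 in WT libraries (log2 fold change 0.91, adjusted p = 0.0326, edgeR). Abcc1, which exports glutathione conjugates and leukotriene C4, had 5373, 5202 and 6532 counts against 8272, 10869 and 7905 (log2 fold change -0.56, adjusted p = 0.0197, edgeR). Slc22a4, a carrier of organic cations, and Slco2a1, a prostaglandin carrier, had log2 fold changes of -1.19 and -1.05 (adjusted p = 0.0229 and 0.0267, edgeR). For each of the 4 transporters the groups did not overlap after scaling. The call of Abcb1a was lost without any 1 library other than WT replicate 2, that of Abcc1 without any 1 other than WT replicate 3, that of Slc22a4 without KO replicate 1, WT replicate 1 or WT replicate 2, and that of Slco2a1 without KO replicate 1, KO replicate 3 or WT replicate 1. The adjusted p by edgeR was then at most 0.127, 0.0771, 0.0788 and 0.109, with the same sign in each fit.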

How the data were processed

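RNA-seq of 3 MSR1 KO and 3 MSR1 WT libraries was used. The authors deposited 1 table of 52550 genes with raw counts per gene and library, which were used as deposited. The signal values (counts divided by a size factor by the authors) and the authors' own log2 fold changes and p-values in the deposited table were not used. TopHat is named in the paper's methods, whereas the submitters' processing notes name fastp 0.17.1, HISAT2 2.1.0 and DESeq2 1.18.1. The counter, any use of strand and the build are not given in the sources used here. Of the gene IDs, 52403 matched GENCODE M21 (GRCm38), 49909 of them with equal start and end.

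Counts were filtered (filterByExpr), scaled by TMM and tested with edgeR 4.0.16 (glmQLFit, glmQLFTest) in R 4.3.3, and p-values were adjusted by Benjamini-Hochberg over the 16402 genes tested. Each standard error was computed as the absolute log2 fold change divided by the root of its F statistic. CPM use TMM-scaled library sizes, and levels per length use the union of GENCODE exons. A stretch of 50 bases was called shared when another gene's transcript holds it.

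Named were members called by either rule, every Ugt1a gene, the 5 most abundant tested members per family, called genes of the lists, Ahr, Nfe2l2, Por and Msr1. Further members were named after their values were seen (Cyp26b1, Cyp2u1 and the other members with plain values), as were Nqo1 and Serpinb2. Members and lists were chosen with earlier results of these data known. Alternatives were other normalizations, other filters, DESeq2 1.42.0, the replicate block, the Ugt1a genes summed to 1 feature, and each library left out. The method was tested on simulated counts, and the outcome is not reported here. The sequence of the exons common to the Ugt1a genes is not reported here.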

Additional observations from a re-analysis of the deposited data

How the results depend on the processing

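The members lower at an adjusted p under 0.05, 5 in the main fit, numbered 3 with no filter on low counts and 8 by DESeq2. They numbered 3 with the Ugt1a genes summed to 1 feature and 1 to 5 with a library left out. Some were not among the 5. DESeq2 added Gstm2, Gsta3 and Cyp26b1, the fit without KO replicate 2 added Cyp26b1, and that without KO replicate 3 added Gstm2. A filter of at least 10 counts in every library added Gsta3. With the replicate block 1 was left (Cyp1b1), and of the called list genes Alas1, Ephx1, Aldh1a2, Abcb1a, Abcc1, Slc22a4 and Slco2a1 none was left, with 137 calls over all genes in place of 805. Deviations of same-numbered libraries had correlations of 0.017, -0.01 and -0.039, and not every library correlated best with its own number. These correlations cannot decide whether same-numbered libraries shared a culture or preparation, since a small shared part could be hidden by other spread. The higher calls, 0 in the main fit, were 1 with DESeq2 (Cyp27a1) and 0 to 1 with a library left out. The 4 members higher by fold and unadjusted p were 2 with the Ugt1a genes summed and 1 to 4 with a library left out. Calls over all genes with a library left out numbered 71 (without WT replicate 1) to 779 (without WT replicate 3). The loss thus differed with the library left out, and its cause was not tested. Over all tested genes the median was farthest from 0 when scaled by library size alone, at -0.034 (log2).

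The sign turned under an alternative for 22 of the 50 tested members, none of them called at the adjusted p although Ugt1a9 passed the fold and unadjusted p, in each case with a library left out and for 2 (Cyp4f16 and Cyp2r1) also under other settings. Ugt1a9 ranged from -0.748 (without KO replicate 3) to 3.974, and Ugt1a2 from -0.311 (without WT replicate 2) to 0.975. The others were Ugt1a10 (-0.336 to 0.191), Gsto1 (-0.218 to 0.024), Sult2b1 (-0.386 to 0.137), Gstz1 (-0.056 to 0.045), Mgst1 (-0.082 to 0.165), Gstm4 (-0.039 to 0.227), Cyp4f18 (-0.082 to 0.45), Cyp4f16 (-0.098 to 0.076), Cyp2r1 (-0.077 to 0.121), Cyp2j6 (-0.227 to 0.088), Cyp2j9 (-0.481 to 0.07), Cyp4f17 (-0.38 to 0.017), Cyp11a1 (-0.143 to 0.994), Cyp20a1 (-0.078 to 0.038), Cyp39a1 (-1.39 to 0.028), Cyp46a1 (-0.026 to 1.129), Gstk1 (-0.191 to 0.022), Gstm5 (-0.142 to 0.144), Gstm7 (-0.509 to 0.798) and Gstt2 (-0.386 to 0.02). By library size alone Cyp4f16 was -0.031 and Cyp2r1 -0.027, and with the replicate block they were -0.004 and -0.001. Por ranged from -0.066 to 0.19. The cause was not tested. No member symbol occurred in several rows, so that alternative had nothing to change.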

Other observations

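Some members had no count in 1 library and clear counts in the other 5. Among genes with at least 10 counts in 5 libraries, 119 of 15390 (0.773%) were at 0 in the remaining library, and so were 3 of 46 members (6.52%), which were picked out after their values were seen. Cyp4f37 had 21, 0 and 18 counts in KO and 18, 20 and 30 in WT libraries. Gstp2, the near copy of Gstp1, had 27, 33 and 47 counts in KO and 31, 31 and 0 in WT libraries. Cyp11a1, the enzyme that cleaves the side chain of cholesterol, had 19, 13 and 17 counts in KO and 17, 0 and 20 in WT libraries. The 3 genes are among the tested members and enter their counts and medians.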
